A study of Arabidopsis thaliana with 12 samples.

Results

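Class III peroxidases are secreted plant haem enzymes, and 59 Arabidopsis thaliana genes listed as members of this family were followed here through 3 chromatin mutants. The members are a fixed list of gene identifiers, drawn up with earlier results of these data known, and all 59 were found among the 34017 gene identifiers of the authors' tables. They lie in 58 of the 31788 loci, of which 55 hold a peroxidase gene and no other gene. The other 3 loci merge a member with a neighbouring gene and were kept out of the counts and medians.

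RNA was sequenced from whole seedlings of wild type (WT) and of the mutants pkl, clf and lhp1 at 14 days, grown on half-strength MS (1/2 MS) medium at 22 °C with 16 h of light and 8 h of dark. The titles give 3 libraries for each of the 4 genotypes, the labels name no allele, and no chemical treatment is recorded. The gene PKL encodes PICKLE, a nucleosome remodeller of the CHD family. CURLY LEAF (CLF) is an enzyme of Polycomb repressive complexes that methylates histone H3 at lysine 27, and the product of LHP1 is a chromodomain protein that recognises the resulting mark, H3K27me3. Given the series title, which ties PICKLE to the spreading of H3K27me3, the comparisons ask which peroxidase genes changed in each mutant.

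The authors gave 1 FPKM value per genotype and locus (a level scaled to transcript length and to the mapped fragments), so no level carries a replicate error and depth is unknown. A locus is called higher or lower ("rose" or "fell") where the authors' Cuffdiff test ran and its deposited q-value was under 0.05. Where no q is printed beside a called peroxidase locus, the authors' deposited table held 0.000661, the smallest q in the tables. All 3 comparisons share the WT value. As a check of the labels, PKL stood at 20.8 FPKM in WT and 6.83 in pkl, and LHP1 at 12.1 in WT and was listed at 0 in lhp1. CLF stood at 8.37 FPKM in WT and 0.264 in clf, with a q of 0.0520 in the authors' deposited table, so it was not called.

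Class III peroxidases act in the cell wall and vacuole. With hydrogen peroxide as oxidant they couple monolignols into lignin and cross-link wall proteins such as extensins, which stiffens the wall. In another cycle they release reactive oxygen species, which can loosen the wall during elongation or serve in defence. The family is large in land plants and many members are used in roots, where they take part in root hair growth, the Casparian strip and the xylem.

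The reference annotation (RefSeq, TAIR10.1) placed 11, 12, 8, 11 and 17 of the members on chromosomes 1 to 5. Their coding sequences ran from 310 to 372 codons with a median of 329, and 38 of the 59 had 4 coding exons. A run of 5 codons for histidine, aspartate, cysteine, phenylalanine and valine, around the distal histidine that takes part in peroxide cleavage, was found in 49 members; the other 10 did not hold these exact residues. Over the 1711 pairs of members the coding identity ranged from 41.7% to 93.8%, with a median of 49.5%. The 45-base stretches around this histidine are shown for the 8 members on which most of the results below turn, with the codons for histidine, aspartate and cysteine in capitals.
AT5G64120 (PRX71): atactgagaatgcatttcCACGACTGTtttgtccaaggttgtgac
AT5G64110: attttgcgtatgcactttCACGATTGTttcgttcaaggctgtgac
AT5G64100: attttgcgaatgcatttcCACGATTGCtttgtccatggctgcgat
AT2G41480 (PRX25): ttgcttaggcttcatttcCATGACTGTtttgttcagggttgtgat
AT3G49110 (PRXCA): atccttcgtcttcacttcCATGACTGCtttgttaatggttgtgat
AT3G49120 (PRXCB): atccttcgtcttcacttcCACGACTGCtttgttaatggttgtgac
AT4G08770 (Prx37): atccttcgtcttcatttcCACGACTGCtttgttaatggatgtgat
AT4G08780: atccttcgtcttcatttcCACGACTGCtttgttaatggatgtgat
The stretches of AT4G08770 and AT4G08780 are the same letter for letter, while the others differ from each other to varying degrees. Such likeness bears on the counts, because it is not stated how reads that match several members were divided.

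Peroxidase transcripts were abundant in these seedlings and unevenly spread. The 55 single-gene loci summed to 5320 FPKM in WT, 5193 in pkl, 4707 in clf and 5722 in lhp1. PRXR1 (AT4G21960) alone made up 43.7% of the WT sum, with 2327 FPKM in WT, 1824 in pkl, 2197 in clf and 1938 in lhp1. PRXR1 was called in no mutant: its q in the authors' deposited tables was 0.154 for pkl, 0.851 for clf and 0.347 for lhp1. Without it the other 54 loci summed to 2993 FPKM in WT, 3370 in pkl, 2510 in clf and 3784 in lhp1, so the sum was lowest in clf and highest in lhp1. In WT, 9 of the 55 loci (16.4%) reached 100 FPKM, against 4.98% of all single-gene loci. A further 23 stood between 10 and 100, 13 between 1 and 10, and 10 below 1, of which 4 were listed at 0. The median level of the members was 16.8 FPKM in WT, 19.1 in pkl, 17.2 in clf and 23.4 in lhp1, and the median over all single-gene loci was between 1.85 and 2.06.

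**Figure D1:**
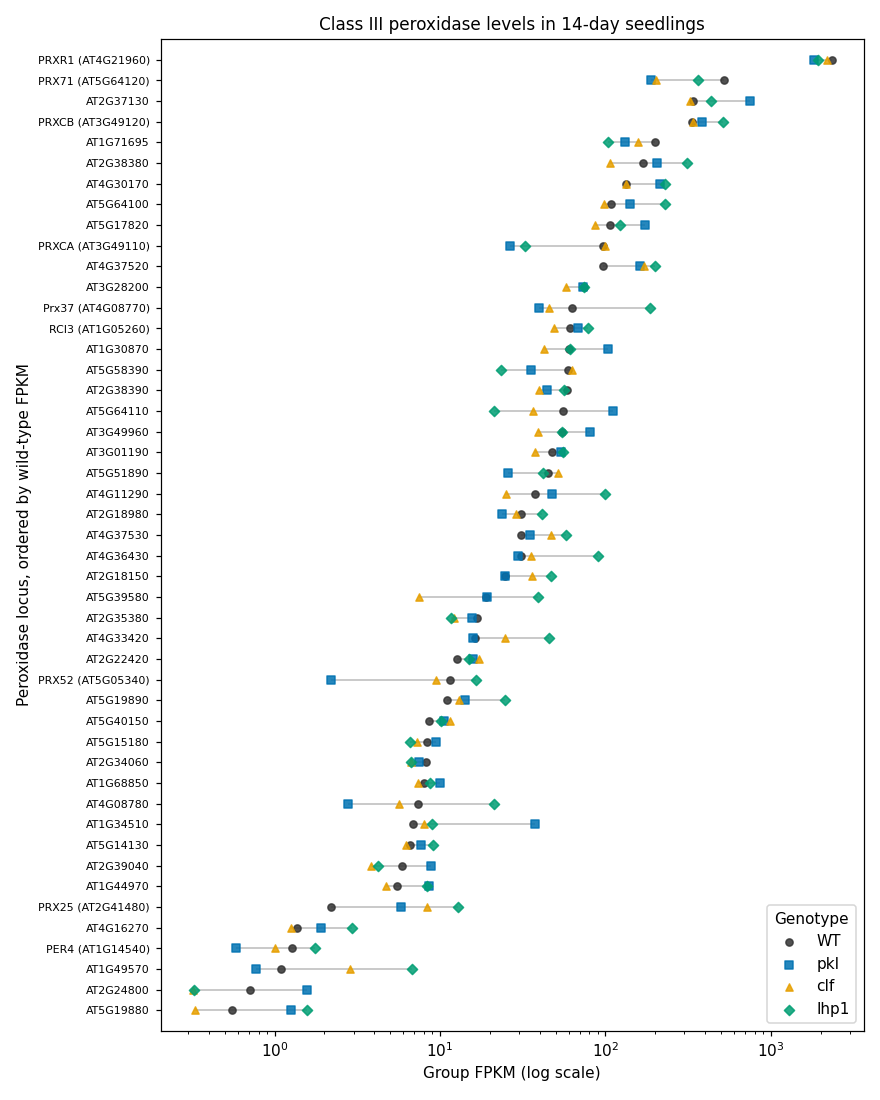
Group FPKM on a log axis (1 value per genotype, no error available) for the 47 single-gene peroxidase loci that reached 1 FPKM in at least 1 genotype, ordered by the WT level. PRXR1 stands apart at the top with its 4 genotypes close together, while PRX71 spreads from 189 to 518 FPKM and PRX52 (AT5G05340) from 2.20 to 16.6.

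In pkl, 22 of the 47 tested single-gene peroxidase loci were called (46.8%), 12 higher and 10 lower. Of all 17344 tested single-gene loci, 14.0% were called in that mutant (7.00% higher and 7.03% lower). In clf, 19 of 47 were called (40.4%), 7 higher and 12 lower. The background there was 13.0% of 17345 loci (7.48% higher and 5.49% lower). In lhp1, 28 of 48 were called (58.3%), 22 higher and 6 lower, beside 22.3% of 17484 loci (11.6% higher and 10.7% lower). The shares called were thus above the background in each mutant, in pkl on both sides, in clf mostly lower and in lhp1 mostly higher. In whole seedlings, fewer cells of a type and less RNA per cell cannot be told apart. The other 8 loci in pkl, 8 in clf and 7 in lhp1 were not tested by the authors and had at most 0.400 FPKM. AT1G14550 was tested in lhp1 alone, at 0.0516 FPKM in WT and 0.454 in lhp1, and was not called.

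Members with a WT level of at least 10 FPKM gave 17 of 32 called in pkl (background 13.7%), 16 of 32 in clf (background 12.9%) and 23 of 32 in lhp1 (background 24.0%), so the gap to the background was also there among loci of such levels. Most changes were modest. A called change of at least 2-fold was reached by 8 loci in pkl, 4 higher (background 2.08%) and 4 lower (2.43%). In clf there were 4, 2 higher (background 2.69%) and 2 lower (1.30%), and in lhp1 15, 12 higher (4.40%) and 3 lower (3.43%). The median of log2((mutant FPKM + 1)/(WT FPKM + 1)) over the tested members was 0.18 in pkl, -0.17 in clf and 0.36 in lhp1. Over all tested single-gene loci it was 0.01, -0.0036 and 0.03. The median of its absolute size was 0.37, 0.33 and 0.51 for the members and 0.16, 0.15 and 0.21 for all loci.

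**Figure D2:**
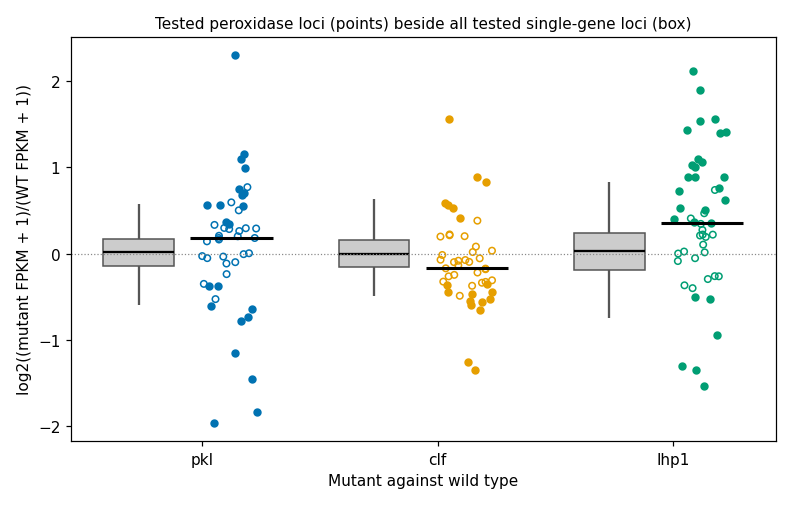
Change of each tested single-gene peroxidase locus (points, filled where called) in each mutant as log2((mutant FPKM + 1)/(WT FPKM + 1)), beside the box of all tested single-gene loci (line, median; box, quartiles; whiskers, 5th to 95th percentile). Bars mark the members' medians of 0.18 in pkl, -0.17 in clf and 0.36 in lhp1, and many points lie outside the whiskers.

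Peroxidases annotated for lignin in the cell wall did not move as one. PRX71 (AT5G64120; chromosome 5, 25659306 to 25661002 in the authors' loci), annotated for wall lignification and for defence against fungi, was the second most abundant member in WT. It stood at 518 FPKM in WT, 189 in pkl, 203 in clf and 360 in lhp1, so WT was the highest of the 4. PRX71 fell in each mutant, with log2 fold changes of -1.46, -1.35 and -0.52 (q in the authors' deposited lhp1 table, 0.00123). PRX25 (AT2G41480; chromosome 2, 17296812 to 17298731), also annotated for wall lignification, gave the opposite picture from a low base. Its levels were 2.18 FPKM in WT, 5.83 in pkl, 8.39 in clf and 12.9 in lhp1, and it rose in each mutant, with log2 fold changes of 1.42, 1.94 and 2.56. AT5G51890, annotated for lignification of the tracheary elements of roots, stood at 44.9 FPKM in WT, 25.6 in pkl, 51.6 in clf and 42.2 in lhp1. It fell in pkl (log2 fold change -0.81) and was called in no other mutant; its locus overlaps AT5G51880 on the other strand, which stayed between 39.4 and 42.02 FPKM. AT1G05250, the remaining lignification gene with a locus of its own, was near 0, with at most 0.0746 FPKM in any genotype.

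The bases before the annotated gene start of PRX71 and PRX25 are printed because these members moved in opposite directions in each mutant. Each window holds 250 bases on TAIR10.1, at chr5:25661008-25661257 and chr2:17298726-17298975, both on the minus strand. Capitals mark the W-box core TTGAC on either strand, the core letters of WRKY factor sites.
AT5G64120 (PRX71): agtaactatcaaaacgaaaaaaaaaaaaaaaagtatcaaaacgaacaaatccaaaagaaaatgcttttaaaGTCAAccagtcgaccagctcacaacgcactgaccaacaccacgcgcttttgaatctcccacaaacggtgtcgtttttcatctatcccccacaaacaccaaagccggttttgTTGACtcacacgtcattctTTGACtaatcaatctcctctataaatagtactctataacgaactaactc
AT2G41480 (PRX25): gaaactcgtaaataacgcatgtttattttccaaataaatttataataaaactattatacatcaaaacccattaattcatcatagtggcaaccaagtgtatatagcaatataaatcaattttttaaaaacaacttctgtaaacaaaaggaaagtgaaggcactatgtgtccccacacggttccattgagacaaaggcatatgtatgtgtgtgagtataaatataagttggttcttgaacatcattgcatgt
The PRX71 window holds 3 such matches, and these letters are not in the PRX25 window. Over the family, 26 of 59 windows (44.1%) held the W-box core, against 44.9% of the 27443 windows of the same length read from the genome. The telobox AAACCCTA, a motif known from Polycomb response elements, was in 4 member windows (6.78%) and in 4.49% of all, and the GA repeat GAGAGAGA in 3 (5.08%) and in 4.91% of all. The G-box CACGTG was in 0 member windows and in 6.49% of all. All motifs were searched on both strands, and none of the searched letters contains another.

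Among the 5 members annotated for defence or the oxidative burst, each of which has a locus of its own, 1 rose and 2 fell in pkl, 2 fell and 0 rose in clf, and 3 rose and 2 fell in lhp1. Of all tested single-gene loci, 14.0%, 13.0% and 22.3% were called in these mutants in either direction. PRX71, described with the lignin genes, is one of the 5. PRXCA (AT3G49110; chromosome 3, 18200664 to 18203142) and PRXCB (AT3G49120; 18207651 to 18210132) encode wall peroxidases that produce hydrogen peroxide in defence and act in cell elongation. PRXCA stood at 96.8 FPKM in WT, 26.4 in pkl, 99.1 in clf and 32.8 in lhp1. It fell in pkl and in lhp1, with log2 fold changes of -1.88 and -1.56, while the WT and clf levels were close. PRXCB stood at 334 FPKM in WT, 386 in pkl, 338 in clf and 513 in lhp1, and it rose in lhp1 alone (log2 fold change 0.62). AT2G37130 (chromosome 2, 15597921 to 15600077), annotated for defence against fungi, was at 337 FPKM in WT, 748 in pkl, 324 in clf and 434 in lhp1. A rise was called in pkl (1.15) and a smaller one in lhp1 (0.37; q in the authors' deposited table, 0.0329), and its clf value lay just under WT. AT5G39580, with the same annotation, stood at 19.1 FPKM in WT and in pkl, 7.42 in clf and 39.2 in lhp1. It fell in clf (-1.36) and rose in lhp1 (1.04), and its pkl level equalled WT.

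PRXCA and PRXCB have coding identity of 90.4%, with 1 gene between them, and 102 of 1065 aligned coding positions differ. A 60-base stretch of each is printed, with the differing bases in capitals, to show how far reads could tell the copies apart; it covers coding bases 154 to 213 of PRXCA and 151 to 210 of PRXCB.
AT3G49110 (PRXCA): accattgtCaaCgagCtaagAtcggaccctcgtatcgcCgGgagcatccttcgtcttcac
AT3G49120 (PRXCB): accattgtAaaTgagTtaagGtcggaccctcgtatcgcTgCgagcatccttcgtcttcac
This stretch differs at 6 bases, but the longest run shared by both coding sequences was 111 bases, over which reads of either gene are alike. Despite the shared runs, the copies had unlike values in lhp1, where PRXCA was called lower and PRXCB higher.

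The closest pair of the family, Prx37 (AT4G08770; chromosome 4, 5598115 to 5600362) and AT4G08780 (5604153 to 5611215), lies head to head on opposite strands with no gene between. Prx37 is annotated as expressed in vascular bundles, and its overexpression dwarfs plants. It stood at 62.7 FPKM in WT, 39.7 in pkl, 45.6 in clf and 187 in lhp1. It fell in pkl (-0.66) and clf (-0.46; q in the authors' deposited table, 0.00227) and rose in lhp1 (1.57), so lhp1 stood far above the other 3 genotypes. AT4G08780 was at 7.39 FPKM in WT, 2.78 in pkl, 5.63 in clf and 21.2 in lhp1. It fell in pkl (-1.41) and rose in lhp1 (1.52); its q in the authors' deposited tables was 0.0286 and 0.00742. Their coding identity was 93.8%, 65 of 1041 aligned positions differed and the longest shared run was 101 bases, so the values of the weaker copy can include reads of the stronger one. The locus of AT4G08780 also overlaps AT4G08790 on the other strand by 3068 bases; that gene stood between 7.97 and 10.3 FPKM.

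The 250 bases before each gene of this pair are printed because its members moved together in pkl and in lhp1; they lie at chr4:5600399-5600648 (minus strand) and chr4:5603855-5604104 (plus strand) on TAIR10.1, with the W-box core in capitals.
AT4G08770 (Prx37): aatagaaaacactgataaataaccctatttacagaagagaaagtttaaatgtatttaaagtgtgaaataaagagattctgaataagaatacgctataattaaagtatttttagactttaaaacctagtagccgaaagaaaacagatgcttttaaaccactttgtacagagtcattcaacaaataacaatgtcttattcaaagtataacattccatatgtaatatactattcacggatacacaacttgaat
AT4G08780: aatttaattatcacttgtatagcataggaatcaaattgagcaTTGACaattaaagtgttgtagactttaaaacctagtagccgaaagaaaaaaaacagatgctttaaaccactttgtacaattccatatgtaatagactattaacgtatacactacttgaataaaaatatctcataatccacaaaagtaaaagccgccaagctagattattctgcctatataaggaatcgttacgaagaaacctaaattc
The windows were 48.5% identical when aligned end to end, but they share a 31-base run, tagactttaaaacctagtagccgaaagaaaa. It begins 140 bases before the start of Prx37 and 190 bases before that of AT4G08780.

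Another cluster on chromosome 5 holds AT5G64100, AT5G64110 and PRX71, with coding identities between 59.5% and 67.4% and no shared run over 17 bases. AT5G64110 (25654074 to 25656030), annotated for shoot, leaf and stamen, stood at 55.5 FPKM in WT, 111 in pkl, 36.4 in clf and 21.2 in lhp1. It rose in pkl (1.00) and fell in clf (-0.61) and lhp1 (-1.38). AT5G64100 (25650641 to 25652123), a wall protein annotated for root, hypocotyl and callus, was at 108 FPKM in WT, 140 in pkl, 98.6 in clf and 228 in lhp1. The rise was called in pkl (0.37; q in the authors' deposited table, 0.0235) and in lhp1 (1.07). In lhp1, AT5G64100 thus rose while its neighbours AT5G64110 and PRX71 fell.

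Of the 13 pairs of members with at most 2 genes between them, 3 more had coding identity above 90%. AT4G37520 stood at 96.5 FPKM in WT, 163 in pkl, 172 in clf and 198 in lhp1, and it rose in each (0.75, 0.83 and 1.04). Its neighbour AT4G37530, 92.4% identical, was at 30.7 FPKM in WT, 34.9 in pkl, 46.7 in clf and 57.5 in lhp1. It rose in clf (0.61) and lhp1 (0.91), as AT4G37520 did. In pkl it was not called (0.19, with a q of 0.420 in the authors' deposited table). The longest run shared by this pair was 67 bases, so the values of either copy can include reads of the other. AT2G38380 and AT2G38390, both annotated for salt stress and 90.6% identical, parted in lhp1. AT2G38380 was at 168 FPKM in WT, 206 in pkl, 106 in clf and 310 in lhp1; it fell in clf (-0.66) and rose in lhp1 (0.89). AT2G38390 was at 58.2 FPKM in WT, 44.5 in pkl, 39.5 in clf and 56.1 in lhp1. It fell in pkl (-0.39) and clf (-0.56), with a q of 0.0275 and 0.00177 in the authors' deposited tables, and its lhp1 value lay close to WT. AT2G18150 was at 24.7 FPKM in WT, 24.6 in pkl, 35.9 in clf and 46.6 in lhp1, rising in clf (0.54; q in the authors' deposited table, 0.00123) and in lhp1 (0.92). Its 91.7% identical neighbour AT2G18140 was listed at 0 in WT, pkl and clf and at 0.179 FPKM in lhp1.

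**Figure D3:**
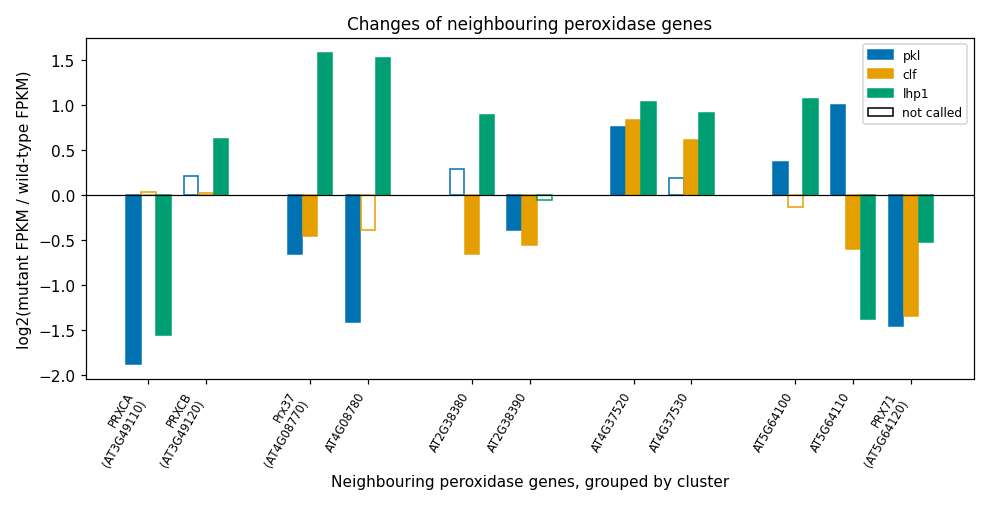
Log2 of mutant FPKM over WT FPKM for 5 groups of neighbouring peroxidase genes, as bars from 0 (filled, called; open, not called; 1 value per bar with no error available). PRXCA and PRXCB point in opposite directions in lhp1, whereas Prx37 and AT4G08780 fall together in pkl and rise together in lhp1.

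Members that the annotation lists for the root, with or without hypocotyl, stem or cultured tissue, numbered 15, of which 14 had their own locus. In pkl 3 rose and 3 fell of 13 tested, in clf 1 rose and 5 fell of 13, and in lhp1 5 rose and 2 fell of 14. The shares of all tested single-gene loci were 7.00% higher and 7.03% lower in pkl, 7.48% and 5.49% in clf, and 11.6% and 10.7% in lhp1. AT1G34510, listed for root alone, was at 6.86 FPKM in WT, 37.7 in pkl, 8.04 in clf and 8.98 in lhp1. Its log2 fold change of 2.46 in pkl was the largest rise of a peroxidase in that mutant, and it was called in no other. AT4G30170 was at 134 FPKM in WT, 215 in pkl, 133 in clf and 228 in lhp1, rising in pkl (0.68) and lhp1 (0.77). AT2G35380 was at 16.8 FPKM in WT, 15.6 in pkl, 12.1 in clf and 11.6 in lhp1. It fell in clf (-0.47) and lhp1 (-0.54), with a q of 0.0297 and 0.00894 in the authors' deposited tables. AT2G39040 was at 5.92 FPKM in WT, 8.79 in pkl, 3.82 in clf and 4.24 in lhp1; it fell in clf (-0.63; q in the authors' deposited table, 0.0385). Its locus overlaps AT2G39030 on the other strand, at 0.433 FPKM in WT and 3.97 in pkl.

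AT3G49960 is annotated as enriched in root hair cells, with less H3K27me3 there than in other root cells. It stood at 54.4 FPKM in WT, 80.9 in pkl, 39.1 in clf and 54.9 in lhp1. It rose in pkl (0.57) and fell in clf (-0.48; q in the authors' deposited table, 0.00227), and lhp1 equalled WT within 1 FPKM. AT5G17820, listed for root and leaf, was at 107 FPKM in WT, 174 in pkl, 86.1 in clf and 122 in lhp1, and rose in pkl (0.70). AT1G30870, listed for root, had a like order of levels but was not called, at 59.96 FPKM in WT, 103 in pkl, 42.4 in clf and 61.0 in lhp1. Its log2 fold change of 0.78 in pkl had a q of 0.0840 in the authors' deposited table, and its locus overlaps AT1G30880 on the other strand. RCI3 (AT1G05260), a cold-inducible peroxidase, was at 61.4 FPKM in WT, 67.9 in pkl, 48.8 in clf and 78.5 in lhp1, and rose in lhp1 (0.35; q in the authors' deposited table, 0.0350).

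Calls among root hair markers, as for AT3G49960, were mostly higher in pkl and lower in clf; their part in the result was not tested. As background for the marker counts, 7.00% of all tested single-gene loci rose and 7.03% fell in pkl. The shares were 7.48% and 5.49% in clf, and 11.6% and 10.7% in lhp1. Of 13 root hair markers tested, 8 rose and 1 fell in pkl, 0 rose and 5 fell in clf, and 0 rose and 3 fell in lhp1. Their summed level was 383 FPKM in WT, 679 in pkl, 279 in clf and 316 in lhp1, and none was at 0 in WT. Among them EXPA7, an expansin of root hairs, rose from 22.3 to 50.1 FPKM in pkl, and RSL4, a master regulator of hair growth, from 2.43 to 7.58. Against these, RSL2 fell from 7.88 to 3.49 FPKM in pkl and was also called lower in clf and lhp1. RHS19, also among the 13, is itself a peroxidase outside the member list. It was called higher in pkl and lower in clf and gave 82.1 FPKM of the WT sum. General root markers gave 2 higher and 1 lower of 11 in pkl, 1 and 3 in clf, and 2 and 1 in lhp1, with a summed level of 2386 FPKM in WT, 2403 in pkl, 2477 in clf and 4045 in lhp1. That sum is dominated by PYK10, a root beta-glucosidase. Leaf photosynthesis markers summed to 27902 FPKM in WT, 30745 in pkl, 21962 in clf and 19575 in lhp1; of 9 tested, 0 rose and 1 fell in pkl, 0 and 3 in clf, and 2 and 5 in lhp1. Flower and anther markers summed to 11.4 FPKM in WT, 7.72 in pkl, 213 in clf and 329 in lhp1, and 3 of the 9 were listed at 0 in WT. The anther genes AMS, MS1, DYT1 and ATA7 were tested in no mutant and had at most 0.0319 FPKM in any genotype. Of 4 markers tested in pkl, 0 rose and 1 fell. All 5 tested in clf rose, as did the 5 tested in lhp1. SEP3 alone gave 166 FPKM of the sum in clf and 232 in lhp1. The summed floral transcripts thus stood well above WT in clf and lhp1. The members described next rose in lhp1. In clf only AT1G49570 and AT4G33420 of these rose, and AT4G11290 fell. The part of floral transcripts in the result was not tested.

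Several peroxidases were called higher in lhp1, some of them in clf as well. AT1G49570, listed for leaf, hypocotyl, sepal and root, stood at 1.09 FPKM in WT, 0.768 in pkl, 2.87 in clf and 6.79 in lhp1. It rose in clf (1.40; q in the authors' deposited table, 0.00123) and in lhp1 (2.64), the largest log2 rise of a called peroxidase there. AT4G33420 was at 16.3 FPKM in WT, 15.9 in pkl, 24.6 in clf and 45.8 in lhp1, rising in clf (0.59) and lhp1 (1.49). AT4G36430, annotated for the response to other organisms, was at 30.7 FPKM in WT, 29.5 in pkl, 35.7 in clf and 90.6 in lhp1, and rose in lhp1 (1.56). In these 3 the pkl level was below WT and lhp1 was the highest genotype. AT5G19890 was at 11.01 FPKM in WT, 14.1 in pkl, 13.01 in clf and 24.6 in lhp1, rising in lhp1 (1.16). AT4G11290 was at 37.3 FPKM in WT, 47.5 in pkl, 24.98 in clf and 100.04 in lhp1. It rose in pkl (0.35; q in the authors' deposited table, 0.0477) and lhp1 (1.42) and fell in clf (-0.58; q in the authors' deposited table, 0.00123).

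PRX52 (AT5G05340) fell furthest in pkl, from 11.4 FPKM in WT to 2.20, against 9.49 in clf and 16.6 in lhp1. Its log2 fold change was -2.38 in pkl, and it rose in lhp1 (0.54; q in the authors' deposited table, 0.0152). AT5G58390 was at 59.2 FPKM in WT, 35.3 in pkl, 62.6 in clf and 23.4 in lhp1, and fell in pkl (-0.75) and lhp1 (-1.34). As for PRXCA, WT and clf were high and the other genotypes low. AT1G71695 (chromosome 1, 26964249 to 26966688), the fifth most abundant member in WT, stood at 199.95 FPKM in WT, 131 in pkl, 157 in clf and 103 in lhp1. It fell in each mutant, with log2 fold changes of -0.61, -0.35 and -0.96 (q in the authors' deposited clf table, 0.0283). AT2G18980 was at 31.0 FPKM in WT, 23.8 in pkl, 28.9 in clf and 41.4 in lhp1. It fell in pkl (-0.38) and rose in lhp1 (0.42), with a q of 0.0482 and 0.0199 in the authors' deposited tables.

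The remaining called members changed little or stood low. AT1G44970 was at 5.46 FPKM in WT, 8.53 in pkl, 4.74 in clf and 8.31 in lhp1. It rose in pkl (0.64) and lhp1 (0.61), with a q of 0.00894 and 0.0125 in the authors' deposited tables. AT5G19880 was at 0.551 FPKM in WT, 1.27 in pkl, 0.332 in clf and 1.57 in lhp1, a low level in all 4 genotypes. Rises were called in pkl (1.20) and lhp1 (1.51), with a q of 0.0444 and 0.0107 in the authors' deposited tables. AT3G28200 was at 74.3 FPKM in WT, 72.8 in pkl, 57.6 in clf and 74.4 in lhp1, and fell in clf (-0.37; q in the authors' deposited table, 0.0261). AT2G22420 was at 12.7 FPKM in WT, 15.8 in pkl, 17.2 in clf and 14.9 in lhp1, and rose in clf (0.44; q in the authors' deposited table, 0.0383). In both, WT and lhp1 were closer to each other than WT and clf.

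**Figure D4:**
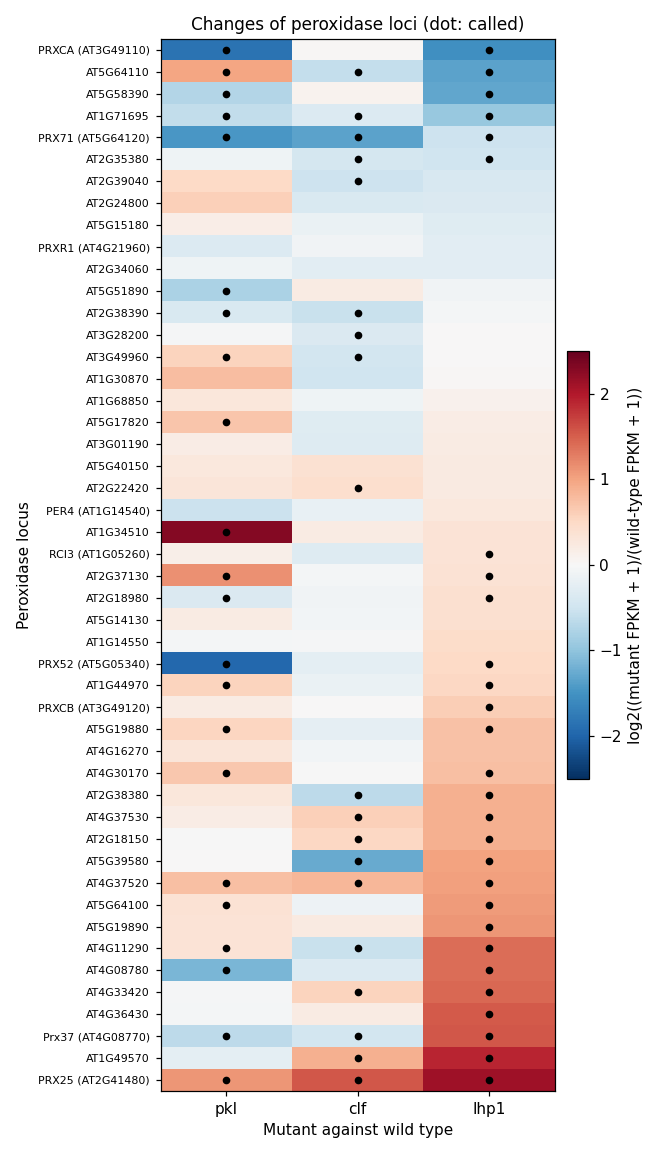
Colour map of log2((mutant FPKM + 1)/(WT FPKM + 1)) for each peroxidase locus tested in lhp1, ordered by its lhp1 change, with a dot where the locus was called. Red cells with dots fill the lower rows of the lhp1 column (22 called higher), while the pkl column mixes 12 called higher with 10 called lower and the clf column holds 7 and 12.

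Across the 55 loci, 36 were called in at least 1 mutant and 19 in none. The share of all single-gene loci called in at least 1 mutant was not counted. By mutant, 14.0% of all tested single-gene loci were called in pkl, 13.0% in clf and 22.3% in lhp1. Of those 19, 3 had a WT level of at least 10 FPKM (PRXR1, AT1G30870 and AT3G01190), 7 stood between 1 and 10, and 9 below 1. AT3G01190 was at 47.5 FPKM in WT, 53.9 in pkl, 37.6 in clf and 55.0 in lhp1. The 7 at 1 to 10 FPKM in WT were PER4 (AT1G14540), AT1G68850, AT2G34060, AT4G16270, AT5G14130, AT5G15180 and AT5G40150, with log2 fold changes between -1.14 and 1.11. Loci tested in no mutant numbered 7 and had at most 0.400 FPKM in any genotype. Among these very low members was AT3G50990 (PER36), which acts in mucilage release from the seed coat; it was listed at 0 in WT, pkl and clf.

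Merged loci hold 4 members. The locus of PA2 (AT5G06720) and AT5G06730, both members and 80.6% identical, was at 7.57 FPKM in WT, 6.31 in pkl, 11.2 in clf and 19.2 in lhp1. It rose in clf (0.56; q in the authors' deposited table, 0.0118) and lhp1 (1.34), without a value for either gene alone. The locus of PRX72 (AT5G66390), annotated for lignin, and AT5G66380 was at 37.8 FPKM in WT, 41.7 in pkl, 29.5 in clf and 51.7 in lhp1. It rose in lhp1 (0.45; q in the authors' deposited table, 0.00664). The locus of AT3G21770 and AT3G21781 was at 63.6 FPKM in WT, 45.7 in pkl, 73.7 in clf and 88.2 in lhp1 and was not called. Besides these, 8 single-gene member loci overlap another annotated gene, and since the sources used here do not give the strand setting, their values can hold reads of that gene.

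Genes of pathways that work with the peroxidases were counted in each mutant in the same way, beside the same 14.0%, 13.0% and 22.3% of all tested loci called in pkl, clf and lhp1; differences between the mutants were not tested. Of 13 tested genes of monolignol synthesis, which makes the lignin precursors, 7 rose and 0 fell in pkl, 1 rose and 2 fell in clf, and 4 rose and 1 fell in lhp1. Examples in pkl were 4CL3, from 5.59 to 11.1 FPKM, and CAD4, from 95.1 to 154. Laccases, which also oxidise monolignols in the wall, gave 1 higher of 5 in pkl, 2 of 6 in clf and 6 of 6 in lhp1, with none lower. LAC2 rose from 0.554 FPKM in WT to 1.88 in pkl, 1.66 in clf and 3.77 in lhp1, and like PRX25 it was called higher in each mutant. Extensins, wall proteins that peroxidases cross-link, gave 4 higher and 1 lower of 6 in pkl, 0 and 4 in clf, and 0 and 3 in lhp1. NADPH oxidases of the RBOH family, which supply the superoxide that becomes hydrogen peroxide, gave 0 calls of 5 in pkl, 1 lower in clf and 3 higher in lhp1. RBOHD was at 55.4 FPKM in WT and 86.9 in lhp1.

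Genes that remove hydrogen peroxide and superoxide gave 2 higher and 0 lower of 17 in pkl, 0 and 3 in clf, and 2 and 1 in lhp1, which is 11.8%, 17.6% and 17.6% called, near the background shares. The pkl calls were the copper-zinc superoxide dismutases CSD1, from 50.3 to 103 FPKM, and CSD2, from 19.0 to 49.2. The catalase genes CAT1, CAT2 and CAT3 were planned for this list but dropped out when symbols were matched to loci. They are not in these counts. Endodermis and Casparian strip genes, where peroxidases polymerise lignin, gave 0 calls of 9 in pkl and in lhp1 and 4 lower in clf, among them CASP1 (47.7 FPKM in WT, 31.1 in clf) and ESB1 (33.1 and 25.3). The q of these in the authors' deposited table was 0.00227 and 0.0465. Suberin genes gave 0 calls of 10 in pkl, 1 lower in clf and 2 lower in lhp1. Xylem and secondary wall genes gave 0 calls of 9 in pkl, 1 higher in clf and 3 higher in lhp1. Regulators known to act on peroxidase genes gave 1 higher of 6 in each mutant, ANAC032 in pkl and lhp1 and MYB30 in clf. In the authors' deposited tables the q was 0.000661 and 0.00276 for ANAC032 and 0.0223 for MYB30.

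**Figure D5:**
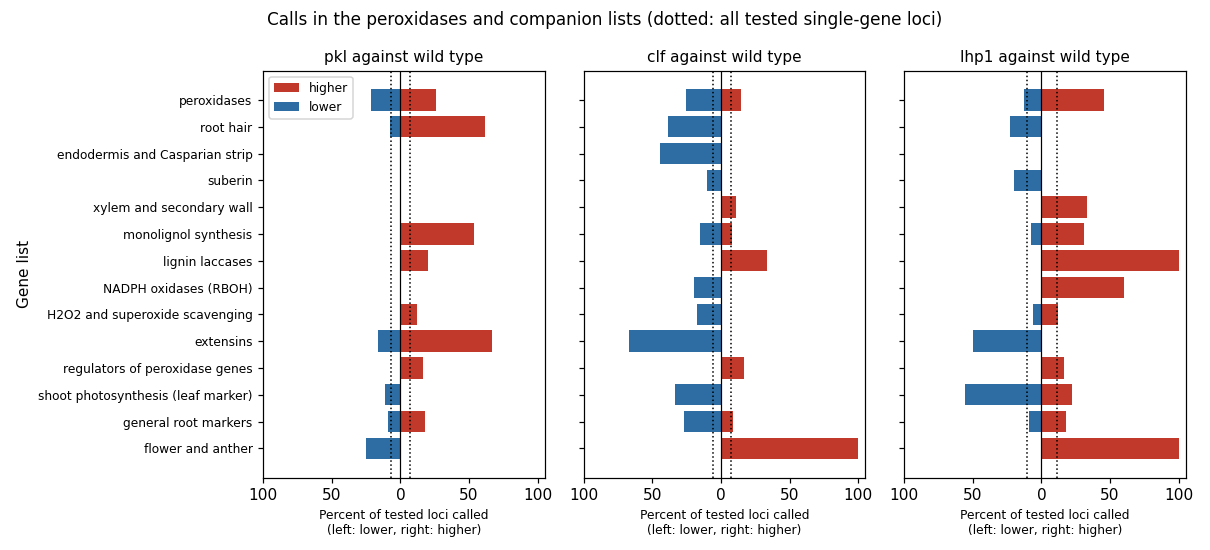
Percent of the tested loci of each gene list called lower (left of 0) and higher (right of 0) in each mutant, with dotted lines at the share of all tested single-gene loci called in that direction. Lists are small (4 to 17 tested genes, beside 47 or 48 peroxidases), so 1 gene moves a bar far. The peroxidase bars pass the dotted lines on both sides in each panel, but the lower bar in lhp1 (12.5%) lies near its line (10.7%).

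The smallest called change among the members was 0.35 on the log2 scale in each mutant (AT4G11290 in pkl, AT1G71695 in clf and RCI3 in lhp1). With Benjamini-Hochberg adjustment of the deposited p-values within each table, 5 calls were lost, those of AT2G18980, AT4G11290 and AT5G19880 in pkl and of AT2G22420 and AT2G39040 in clf. Larger differences could also miss the threshold, as the 0.78 of AT1G30870 in pkl did. The labels do not say whether the libraries of a genotype came from separate plants or cultures, so the spread behind the deposited q-values may be technical.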

How the data were processed

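RNA-seq of whole 14-day seedlings was compared between WT and pkl, clf and lhp1. Per the labels' protocols, 1 µg of total RNA entered each library. Tools in the submitters' processing notes are Cuffdiff 2.1.1, Cufflinks 2.1.1 and TopHat, with the build TAIR10. Strand setting and normalisation between libraries: not given in the sources used here. For every locus the authors deposited 1 FPKM for each group, with a p-value and a q-value for each mutant against WT. FPKM keeps no counts, so the depth per sample is unknown and single-library values were not used here. The WT column was the same in all 3 tables (0 loci differed), and 0 columns of per-sample values were left unmapped. The smallest deposited p-value was 5e-05.

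From these values, log2 fold changes were computed here, and a locus was called where the status was OK and the authors' q-value was under 0.05. Medians use a pseudocount of 1 FPKM. Counts use single-gene loci; 2059 of the 31788 loci held several genes. Members, lists and tests were chosen with earlier results of these data known. Values in each genotype are given for members called in at least 1 mutant and for the 10 most abundant in WT, and companion genes were named from the called members with the largest log2 fold change. Companion symbols were matched in the RefSeq gene table: 129 had a locus of their own, 14 had none, 20 had no unique match and 1 was a duplicate. One root hair marker, RHS19, is a peroxidase that is not among the 59.

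Sequences, gene models and annotated roles are from RefSeq TAIR10.1, matched by gene identifier for all 59 members. Of 24098 single-gene nuclear loci, all overlapped their gene in that annotation, and 8378 had at least 1 end equal. Coding identity stands in for the protein identity first planned, and upstream windows are printed for 4 of the members that the naming rule covers. The code that applies the q threshold was checked on simulated fold changes of known error. The authors' Cuffdiff test and read assignment were not simulated. Python 3.11.15, pandas 2.3.3, numpy 2.4.6, Biopython 1.88 and matplotlib 3.10.9 were used. Alternatives were a stricter q, adjustment within each table, a filter on low values, a minimum fold, another pseudocount, another scaling and inclusion of merged loci.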

Additional observations from a re-analysis of the deposited data

How the results depend on the processing

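With a minimum change of 2-fold, the peroxidase calls went down to 8 in pkl (4 higher, 4 lower), 4 in clf (2 and 2) and 15 in lhp1 (12 and 3), since by construction smaller changes were left out. The other alternatives kept each count within 1.5 times: with q under 0.01 the calls were 16 in pkl, 14 in clf and 22 in lhp1, and with Benjamini-Hochberg adjustment within each table they were 19, 17 and 28. A filter at 1 FPKM left 22, 19 and 28, and counting merged loci gave 22, 20 and 30. The shares of all loci called were not counted under these alternatives, so the gap to the background there is not known. Medians kept their sign, from 0.17 to 0.19 in pkl, -0.19 to -0.14 in clf and 0.33 to 0.41 in lhp1. Of the 69 calls of single-gene loci, 5 were lost under adjustment within the table (AT2G18980, AT4G11290 and AT5G19880 in pkl, AT2G22420 and AT2G39040 in clf) and 17 at q under 0.01, and scaling by the median ratio reversed 0. No paired analysis was possible because each table holds 1 value per genotype, without replicate numbers; for the same reason leaving out a replicate was not run. The loci whose test did not run had at most 0.239 FPKM in pkl, 0.393 in clf and 0.400 in lhp1.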
